A study of Mus musculus with 18 samples.

Results

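The replication-dependent histone genes encode the H1, H2A, H2B, H3 and H4 proteins that package DNA newly made in S phase. They were taken by name, as every symbol of the deposited comparison table that begins with Hist1h, Hist2h, Hist3h or Hist4h. This gave 64 transcript rows with 63 symbols, and since 1 gene had 2 rows with equal counts, 63 genes of the 15307 collapsed genes of the series. There were 5 H1, 18 H2A, 15 H2B, 12 H3 and 13 H4 genes, 51 of them on chromosome 13, 10 on chromosome 3, 1 on chromosome 11 and 1 on chromosome 6. All 63 passed the filter on low counts and were tested in every comparison. They were chosen by name, and the measured values that entered were the equality of counts and the authors' filter behind the deposited table. The rule itself uses no difference between treatments, but it was set with earlier results of these data known.

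The cells were the GTML medulloblastoma line, which carries an overexpressed human MYCN gene and comes from mice whose transgene, built on the GLT1 promoter and a TRE element, puts MYCN and luciferase in hindbrain neural progenitors. All groups carry this transgene. They received 50 nM Rapalink-1, 5 nM rapamycin or DMSO for 3 h, with 3 replicates each. Ribosome footprints (stretches of mRNA shielded by translating ribosomes) and total RNA of the same lysates were sequenced, which gave 18 libraries. Rapamycin binds mTOR complex 1, a growth kinase, beside its active site and blocks its action on the S6 kinases more than on the eIF4E-binding proteins. Rapalink-1 links a rapamycin part with an inhibitor of the ATP site, and it blocks both arms. Nothing in the labels says whether the replicates were separate cultures, so p-values measure the spread between these samples, which may be technical. The footprint libraries are labelled RP-B for DMSO and Rapalink-1 but RP for rapamycin, and what this marks is not said. In footprint and efficiency comparisons with rapamycin, whatever the label marks cannot be told apart from the treatment.

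Most mRNAs end in a poly(A) tail. Replication-dependent histone mRNAs do not: they have no introns and end in a stem-loop that the stem-loop binding protein SLBP holds during processing, export and translation. They accumulate in S phase, when NPAT activates their transcription, and are degraded quickly when DNA synthesis stops. H3 and H4, with H2A and H2B, form the nucleosome core, and H1 binds the linker DNA between nucleosomes. The genes sit in clusters, in which many H2A and H2B genes lie head to head and share the DNA between their starts. The set was taken by name, and 6 H2B genes have annotated spans over 1000 bp. They are Hist1h2bc, Hist1h2be, Hist1h2bp, Hist1h2bq, Hist1h2br and Hist2h2be. Whether all transcripts of these genes have the form described was not examined.

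Short motifs of histone promoters were searched by class, and 58 of the 63 genes matched a promoter window in the RefSeq table, whose build is GRCm38.p6. Each window held 300 bases, 250 before the start and 50 after it, and both strands were searched, with matches allowed to overlap. Hist1h3a, Hist1h3f, Hist1h2bc, Hist2h2be and Hist2h4 had no entry. The H4 element GGTCCG was found in 11 of 12 H4 windows and in 1 of 10 H3 windows, against 8.25% of 32851 mouse windows. The octamer ATTTGCAT was found in 7 of 18 H2A windows and in 6 of 13 H2B windows, against 1.74% of all windows. The H1 box AAACACA was found in 4 of 5 H1 windows, 2 of 18 H2A windows and 1 of 13 H2B windows, against 7.18% of all windows. CCAAT was found in all 5 H1, 18 H2A, 13 H2B and 10 H3 windows but in 3 of 12 H4 windows, against 37.4% of all windows. TATAAA was found in 4 of 5 H1, 11 of 18 H2A, 7 of 13 H2B, 4 of 10 H3 and 8 of 12 H4 windows, against 13.6%.

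The 250 bases before the annotated start are printed for 4 genes on which the results below turn, 5′ to 3′ on the gene's own strand. Hist1h1d had one of the largest RNA rises, Hist1h2bk shares its window with the H2A gene Hist1h2ah, Hist2h3b lost footprints with Rapalink-1, and Hist4h4 is an H4 gene outside the large clusters. Capitals mark the motifs above, on either strand, so that ATTGG is CCAAT and TTTATA is TATAAA read on the other strand. The windows lie at chr13:23554782-23555031 (plus strand), chr13:22035571-22035820 (plus strand), chr3:96268404-96268653 (plus strand) and chr6:136804432-136804681 (minus strand), in that order. A match describes the letters of the window and says nothing of a bound factor.
Hist1h1d: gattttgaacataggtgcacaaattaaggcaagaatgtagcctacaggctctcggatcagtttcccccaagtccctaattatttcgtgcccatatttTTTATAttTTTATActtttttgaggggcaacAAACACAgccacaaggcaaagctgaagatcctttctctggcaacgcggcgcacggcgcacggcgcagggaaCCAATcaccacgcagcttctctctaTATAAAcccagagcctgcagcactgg
Hist1h2bk: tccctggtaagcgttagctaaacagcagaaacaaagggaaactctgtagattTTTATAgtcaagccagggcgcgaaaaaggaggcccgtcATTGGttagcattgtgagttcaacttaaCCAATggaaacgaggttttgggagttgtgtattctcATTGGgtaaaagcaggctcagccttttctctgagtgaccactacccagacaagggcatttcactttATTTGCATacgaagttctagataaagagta
Hist2h3b: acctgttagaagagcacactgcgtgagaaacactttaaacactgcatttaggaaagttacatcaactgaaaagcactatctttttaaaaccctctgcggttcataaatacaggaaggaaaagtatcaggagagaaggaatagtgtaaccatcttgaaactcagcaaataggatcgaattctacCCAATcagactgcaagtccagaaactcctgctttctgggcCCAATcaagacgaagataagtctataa
Hist4h4: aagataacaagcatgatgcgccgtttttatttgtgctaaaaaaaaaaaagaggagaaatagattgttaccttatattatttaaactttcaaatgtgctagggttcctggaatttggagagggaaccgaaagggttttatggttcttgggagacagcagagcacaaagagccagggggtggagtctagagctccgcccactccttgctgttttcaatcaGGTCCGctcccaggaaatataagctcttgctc

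Levels are read counts scaled to library size (CPM) after TMM scaling, which sets the typical gene equal between libraries. Differences are log2 fold changes ± standard error from edgeR's quasi-likelihood test with 3 libraries per group, on counts that the authors deposited. Benjamini-Hochberg adjustment ran over the whole set of genes tested, and an adjusted p below 0.05 counted as a call. RNA libraries held 6788365 to 13300292 reads and footprint libraries 7692625 to 14150068. No spike-in is recorded, so all values are relative to the other genes of a library. In bulk samples, fewer cells of a type (here cells in S phase) and less RNA per cell cannot be told apart. Of the lineage markers, 7 of 11 had a row, with a summed RNA level of 1136 to 1209 CPM in Rapalink-1, 1056 to 1063 in rapamycin and 1089.5 to 1137 in DMSO libraries, and Sox2, Sox9, Atoh1 and Gli2 were not analysed here. Among footprints the same 7 genes summed to 1577 to 1639 CPM in Rapalink-1, 1232 to 1276 in rapamycin and 1158 to 1224 in DMSO libraries, and their part in the histone results was not tested. Mycn made up most of these sums, at 790, 779 and 810 RNA CPM in DMSO libraries, so they mostly follow Mycn. In RNA, 2 of the 7 were called higher and 0 lower with Rapalink-1, against 19.4% and 18.8% of all genes. With rapamycin 3 were called higher and 2 lower, against 13.6% and 10.5%. Of the markers of oligodendrocytes, of vascular cells and fibroblasts, and of microglia and blood, Hbb-bs alone had a row, at 20.6 to 31.8 CPM in RNA. Rows were found by symbol, and 9787 of the 15307 collapsed genes had one from the authors' table. A marker without a row may therefore still have reads, and the absence of other cell types is not shown.

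Many histone genes are near-identical copies whose reads cannot be placed on 1 gene. Counts of 31 genes stayed within 10% of those of another gene of their class in all libraries. These were all 12 H3 genes, 9 of 13 H4 genes and 10 of 18 H2A genes, and no H1 or H2B gene. With copies this close grouped, the 63 genes come to 39 distinct profiles, of which H3 gives only 2, one for the Hist1 genes and one for Hist2h3b, Hist2h3c1 and Hist2h3c2. Counts of genes below therefore overstate the number of independent measurements in H3, H4 and H2A, and sums count shared reads more than once. Nearly equal counts are only 1 sign of shared reads. H1 and H2B genes may share reads as well, which was not tested. Some libraries lay apart from the others of their group in the summed CPM of a class. DMSO RNA replicate 2 was high for H4 and H2A, at 35991 CPM for H4 against 29730.3 and 29205 in the other DMSO libraries. Among footprints, Rapalink-1 replicate 3 was low for H4 (27270.5 against 32384 and 35714), rapamycin replicate 2 was high for H2A (19336 against 15269 and 16231), and DMSO replicate 3 was high for H1 (8369 against 6768 and 6926). Counts that moved by over 1.5 times without one of these libraries are given beside the results.

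Histone genes took up a large share of the reads. Summed over the 63 genes, they took 14.2, 13.4 and 14.4% of RNA reads in Rapalink-1 libraries, 9.58, 9.31 and 9.64% in rapamycin libraries and 9.74, 10.5 and 9.38% in DMSO libraries. All 3 Rapalink-1 libraries lay above the rest, and rapamycin overlapped DMSO. Counting only the most abundant gene of each class, which gives a floor, the shares averaged 1.87 ± 0.0634%, 1.31 ± 0.025% and 1.31 ± 0.0891% (SD, n = 3 each) in the same order. Among footprints the 63 genes took 12.7, 13.5 and 11.6% of reads in Rapalink-1, 12.3, 13 and 11.4% in rapamycin and 8.8, 9.56 and 9.74% in DMSO libraries. Both drugs thus lay above DMSO in the share of footprint reads. On the TMM scale the Rapalink-1 libraries, at 113267, 121879 and 102741 summed CPM, overlapped DMSO, at 93949, 103116 and 106096 CPM, while rapamycin, at 127715, 137361 and 117927 CPM, lay above it.

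**Figure D1:**
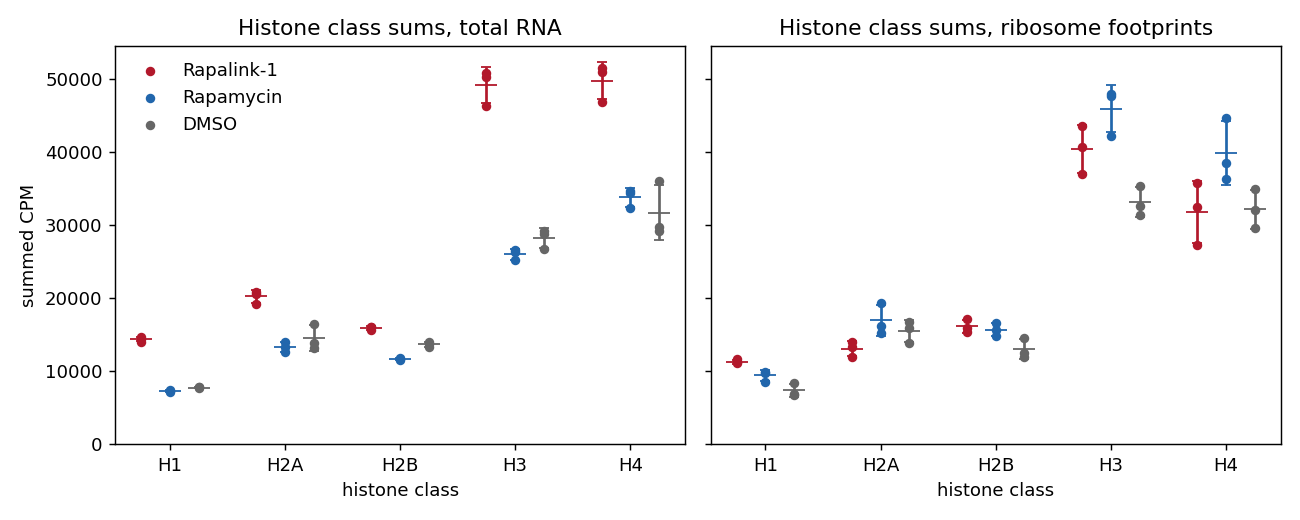
Summed CPM of each histone class in the 3 libraries of each treatment, for total RNA and ribosome footprints; points are libraries, and the cross bar and error bar give mean and SD. In RNA the Rapalink-1 points lie above DMSO in every class, while in footprints they overlap DMSO in H2A and H4.

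The first question is how histone mRNAs differed between Rapalink-1 and DMSO. With Rapalink-1, RNA was higher than with DMSO for 56 of 63 histone genes and lower for 0, where 19.4% of all genes tested were called higher and 18.8% lower. The median change was 0.59, against 0.00 over all genes. The classes did not move alike: H1 had a median of 0.85 with 5 of 5 called, H3 0.84 with 12 of 12, H4 0.64 with 13 of 13, H2A 0.58 with 13 of 18, and H2B 0.22 with 13 of 15. By library totals in place of TMM, the median over all genes was -0.14, and 49 histone genes were higher and 0 lower. The H2B count then fell to 6 of 15.

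Among the H1 genes, Hist1h1d had 3954, 3771 and 3837 CPM in RNA with Rapalink-1, against 1796, 1857 and 1764 CPM with DMSO. Its 1.09 ± 0.038 (adjusted p = 3.5e-26) was level with the rise of Hist4h4. Hist1h1c had 3006, 2878 and 3043 CPM with Rapalink-1 and 1424, 1469 and 1431 CPM with DMSO, a change of 1.04 ± 0.039 (adjusted p = 2.4e-25). In both genes the groups lay far apart. Hist1h1a rose by 0.85 ± 0.038 (adjusted p = 1.1e-22), Hist1h1b by 0.70 ± 0.043 (adjusted p = 1.3e-17) and Hist1h1e by 0.67 ± 0.039 (adjusted p = 2.7e-18).

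The core histones are given by their most abundant genes. Hist1h3b had 5749, 5289.8 and 5812 CPM with Rapalink-1 and 3259, 3215 and 2972 CPM with DMSO, with no overlap and a change of 0.83 ± 0.041 (adjusted p = 6.5e-21). Hist1h4a had 5083, 4696 and 5160.1 CPM with Rapalink-1 and 3058, 3659 and 3005 CPM with DMSO. The high DMSO value is that of replicate 2, and the change was 0.62 ± 0.07 (adjusted p = 2.9e-05). Hist1h4k, whose counts are close to those of Hist1h4a, changed by 0.64 ± 0.079 (adjusted p = 0.00019). Hist4h4 stood out from the other H4 genes, with 1510.2, 1389.7 and 1356 CPM with Rapalink-1 against 639, 744 and 609 CPM with DMSO, a change of 1.09 ± 0.058 (adjusted p = 2.4e-12).

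The most abundant H2A genes were near-identical copies, Hist2h2aa1 and Hist2h2aa2. Each had 2578 to 2840 CPM with Rapalink-1 and 1939 to 2594 CPM with DMSO, so the groups overlapped through DMSO replicate 2, and the change of 0.33 ± 0.122 was not called (adjusted p = 0.082). Among H2B genes, Hist2h2bb had 2810.2, 2666 and 2744 CPM with Rapalink-1 and 2312, 2454 and 2317 CPM with DMSO, a change of 0.21 ± 0.038 (adjusted p = 1.3e-05). Hist1h2bn rose by 0.29 ± 0.039 (adjusted p = 9.5e-08) and Hist1h2bp by 0.16 ± 0.042 (adjusted p = 0.0015). Hist1h2ba, known as a testis H2B, was at 0.05 ± 0.057 and Hist2h2be at 0.01 ± 0.063, neither called, and by library totals they were at -0.09 and -0.13, again not called. The range over the 63 genes was 0.01 to 1.09.

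With rapamycin, RNA of many H2A, H2B and H3 genes fell a little. It was lower than with DMSO for 36 of 63 histone genes and higher for 0, where 10.5% of all genes were called lower and 13.6% higher, and the median was -0.13. Of these, 14 were H2B genes (of 15, median -0.28), 12 H2A (of 18, -0.21), 9 H3 (of 12, -0.12), 1 H1 (of 5, -0.07) and 0 H4 (of 13, 0.10). Wherever a count over the 63 genes or over a class is 0 with edgeR's test, it was also 0 at an unadjusted p below 0.05 and by the DESeq2 Wald test. Without DMSO RNA replicate 2, 13 genes were called higher, 10 of them H4 and 3 H2A. Of the 12 H3 genes, 3 were called lower without DMSO RNA replicate 1 and 0 without rapamycin RNA replicate 1.

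Hist1h2ba had the largest fall, with 372, 358 and 357 CPM with rapamycin and 633, 511 and 631 CPM with DMSO, a change of -0.71 ± 0.058 (adjusted p = 3.7e-09). Hist2h2be had 83.6, 83.1 and 81.5 CPM with rapamycin and 114, 100 and 121 CPM with DMSO, a change of -0.43 ± 0.065 (adjusted p = 2e-06). Hist1h2bp fell by 0.38 ± 0.042 (adjusted p = 1.9e-09). In these 3 H2B genes no library overlapped between the groups. Hist1h1a was the H1 gene called, with 1535, 1525 and 1551 CPM with rapamycin against 1776, 1795 and 1792 CPM with DMSO (-0.22 ± 0.037, adjusted p = 1.7e-05), while Hist1h1c (0.00 ± 0.038, adjusted p = 0.99) and Hist1h1d (-0.07 ± 0.038, adjusted p = 0.18) were not. Between the drugs, RNA was higher with Rapalink-1 than with rapamycin for 58 of 63 genes and lower for 0, where 19.6% and 21.5% of all genes were called in those directions.

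On the TMM scale, footprints followed RNA in some classes and not in others. With Rapalink-1, footprints were higher than with DMSO for 21 of 63 genes and lower for 6, where 25.7% of all genes were called higher and 28% lower, and the median was 0.11. The lower genes thus made up a smaller share than among all genes, and the higher ones a somewhat larger share. The 6 lower genes were 3 without DMSO replicate 3, Rapalink-1 replicate 1 or Rapalink-1 replicate 3, and 10 without rapamycin replicate 2. H1 genes were higher in 4 of 5 (median 0.88), H2B in 6 of 15 (0.28) and the Hist1 genes of H3 in 9 of 9 (0.44). H2A had 1 higher and 3 lower of 18 (-0.16), and H4 1 higher of 13 (-0.05). By library totals, 36 genes were higher and 3 lower, with the median over all genes at 0.28 and that of the histone genes at 0.38. With members whose counts lie within 1% counted once, an alternative chosen after seeing the data, 3 were lower.

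**Figure D2:**
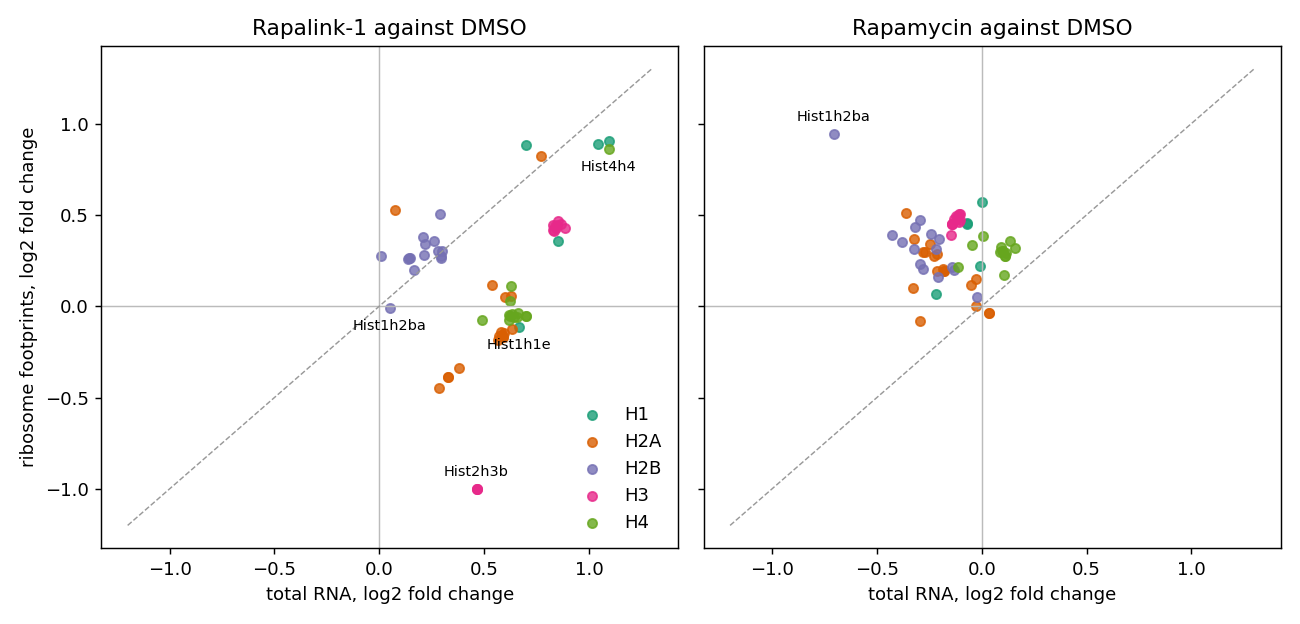
Log2 fold change of footprints (vertical) against that of total RNA (horizontal) for the 63 histone genes, with Rapalink-1 (left) and rapamycin (right) against DMSO; colours give the class and the dashed line equal change. With Rapalink-1 most H2A, H3 and H4 genes lie below the line, and Hist2h3b, at 0.46 in RNA and -1.0 in footprints, lies farthest from it; with rapamycin most genes lie above it.

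The H3 genes split by locus. The copies Hist2h3b, Hist2h3c1 and Hist2h3c2, which share their counts to within 1% and so are 1 measurement, fell in footprints while their RNA rose. Hist2h3b had 898, 921 and 745 footprint CPM with Rapalink-1, 2392, 2460.4 and 2155 with rapamycin and 1581, 1675 and 1875 with DMSO. The 3 treatments did not overlap, and Rapalink-1 was lowest (-1.0 ± 0.089 against DMSO, adjusted p = 1.8e-06). Its RNA was 1831, 1703 and 1898 CPM with Rapalink-1 and 1325, 1329 and 1283 CPM with DMSO (0.46 ± 0.041, adjusted p = 1.2e-12). Hist1h3b, from the large cluster, had 4499.6, 4772 and 4017 footprint CPM with Rapalink-1 and 3237, 3273 and 3467 CPM with DMSO, a rise of 0.41 ± 0.055 (adjusted p = 2e-07). By library totals the Hist2h3b footprints were still lower, at -0.73 (adjusted p = 1.7e-08).

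H1 genes split too. Hist1h1b footprints were 2474, 2456 and 2485 CPM with Rapalink-1 and 1279, 1304 and 1437 CPM with DMSO (0.88 ± 0.051, adjusted p = 6.2e-18). Hist1h1d footprints were 2852, 3012 and 2848 CPM with Rapalink-1 and 1384, 1462 and 1799 CPM with DMSO (0.91 ± 0.108, adjusted p = 0.00017). Those of Hist1h1c rose by 0.89 ± 0.081 (adjusted p = 6.4e-07) and of Hist1h1a by 0.35 ± 0.086 (adjusted p = 0.0042). Hist1h1e, named here after its values were seen as the H1 gene that differed, had 1337, 1461 and 1417 footprint CPM with Rapalink-1 and 1411, 1399 and 1757 CPM with DMSO. These groups overlapped (-0.12 ± 0.107, adjusted p = 0.40), although its RNA, at 2572, 2469 and 2577 CPM with Rapalink-1 against 1629, 1528 and 1646 CPM with DMSO, did not.

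Among the other core histones, Hist4h4 footprints were 1096, 1141 and 1024 CPM with Rapalink-1 and 563, 604 and 629 CPM with DMSO (0.86 ± 0.055, adjusted p = 1.5e-16). It was the H4 gene called. Hist1h4a footprints were 3076, 3386 and 2532 CPM with Rapalink-1 and 2872, 3390.2 and 3032 CPM with DMSO, which overlapped. Hist2h2aa1 was lower, at 1962, 2073 and 1874 CPM with Rapalink-1 against 2195, 2765 and 2786 CPM with DMSO (-0.39 ± 0.127, adjusted p = 0.037), a call lost by library totals (-0.12, adjusted p = 0.39). The H2B gene Hist2h2bb was higher, at 3053, 3441 and 3336 CPM with Rapalink-1 against 2510.3, 2718 and 2859.9 CPM with DMSO (0.28 ± 0.052, adjusted p = 1.9e-05).

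**Figure D3:**
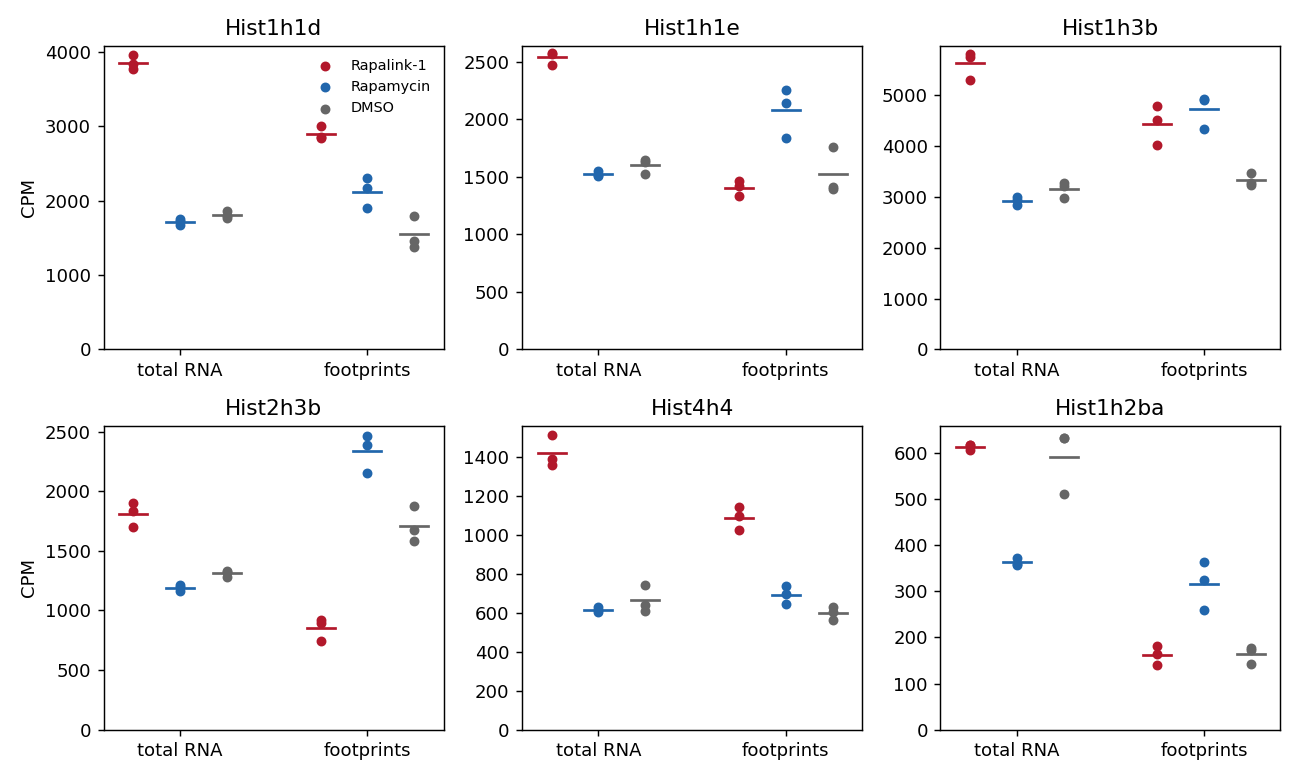
CPM of 6 histone genes in each library (points) with the mean (line), for total RNA and footprints, by treatment. Hist1h1d and Hist4h4 are highest with Rapalink-1 in both assays, Hist1h1e and Hist2h3b in RNA only, and Hist1h2ba has its lowest RNA and highest footprints with rapamycin.

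With rapamycin, footprints were higher than with DMSO for 24 of 63 genes and lower for 0, where 8.75% of all genes were called higher and 9.4% lower, and the median was 0.31. Rapamycin footprint libraries also carry another label than those of DMSO and Rapalink-1, and drug and label cannot be told apart. All 12 H3 genes were called (median 0.47), 4 of 5 H1 (0.45), 4 of 15 H2B (0.31), 3 of 13 H4 (0.30) and 1 of 18 H2A (0.20). Without Rapalink-1 footprint replicate 3, which enters the estimate of spread, 38 genes were called. Hist1h3f, for example, had 4741, 4734 and 4215 CPM with rapamycin and 3153, 3123 and 3372 CPM with DMSO (0.51 ± 0.055, adjusted p = 3.7e-08). Hist1h1c had 1972, 2031 and 1697 CPM with rapamycin and 1184, 1222 and 1434 CPM with DMSO (0.57 ± 0.081, adjusted p = 0.00027). Hist1h2ba footprints were 364, 325 and 260 CPM with rapamycin and 172, 143 and 177 CPM with DMSO (0.94 ± 0.16, adjusted p = 0.0085). Between the drugs, 7 genes were higher with Rapalink-1 than with rapamycin and 16 lower, where 25.4% and 27.6% of all genes were called. This balance depended on the processing: by library totals 22 were higher and 9 lower, and without Rapalink-1 footprint replicate 2, 32 were lower.

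Translational efficiency sets footprints against RNA: its log2 change is that of the footprints minus that of the RNA within 1 joint fit. That fit of all 18 libraries was scaled anew, so its values can differ slightly from the difference of the changes given above. With Rapalink-1 against DMSO it was lower for 41 of 63 histone genes and higher for 1, where 19.9% of all genes were called lower and 22.3% higher; by library totals 12 were lower and 20 higher. The median was -0.45, against 0.06 over all genes, and by library totals -0.08 against 0.43. The scaling shifts all genes together, so the counts of calls depended on it. Under both scalings the histone median lay below that of all genes. By class, efficiency was lower for 15 of 18 H2A genes (median -0.69), 12 of 13 H4 (-0.64), 12 of 12 H3 (-0.38), 2 of 5 H1 (-0.15) and 0 of 15 H2B (0.14). By library totals these counts were 7, 1, 3, 1 and 0, and 14 H2B genes were higher.

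Hist2h3b and its copies had the largest fall in efficiency, -1.42 ± 0.101 (adjusted p = 4.4e-10), which was -1.05 by library totals. Their footprint to RNA ratio, taken between libraries of the same number, was 0.475 ± 0.0751 with Rapalink-1, 1.97 ± 0.162 with rapamycin and 1.3 ± 0.14 with DMSO (SD, n = 3 each). For Hist1h3b the ratio was 0.792 ± 0.106, 1.62 ± 0.149 and 1.06 ± 0.0938 in that order, and the change in efficiency with Rapalink-1 was -0.38 ± 0.075 (adjusted p = 0.00011), with -0.01 by library totals. Over the 10579 genes with at least 1 CPM in both assays, the DMSO ratio had a median of 1.02. Hist1h4a changed by -0.62 ± 0.161 (adjusted p = 0.0071) and Hist2h2aa1 by -0.68 ± 0.178 (adjusted p = 0.0082), with values by library totals of -0.26 and -0.31, neither called. Hist1h1c (-0.12 ± 0.087, adjusted p = 0.31), Hist1h1d (-0.14 ± 0.111, adjusted p = 0.33) and Hist4h4 (-0.19 ± 0.083, adjusted p = 0.061) were not called, and by library totals they were higher, at 0.25, 0.23 and 0.18. Hist1h1b was the gene called higher, at 0.22 ± 0.069 (adjusted p = 0.0069), while Hist1h1e was at -0.74 ± 0.114 (adjusted p = 6.6e-05). The call for Hist1h1b was lost without DMSO replicate 1 (0.16, adjusted p = 0.088), and without DMSO replicate 3, 6 histone genes were called higher.

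**Figure D4:**
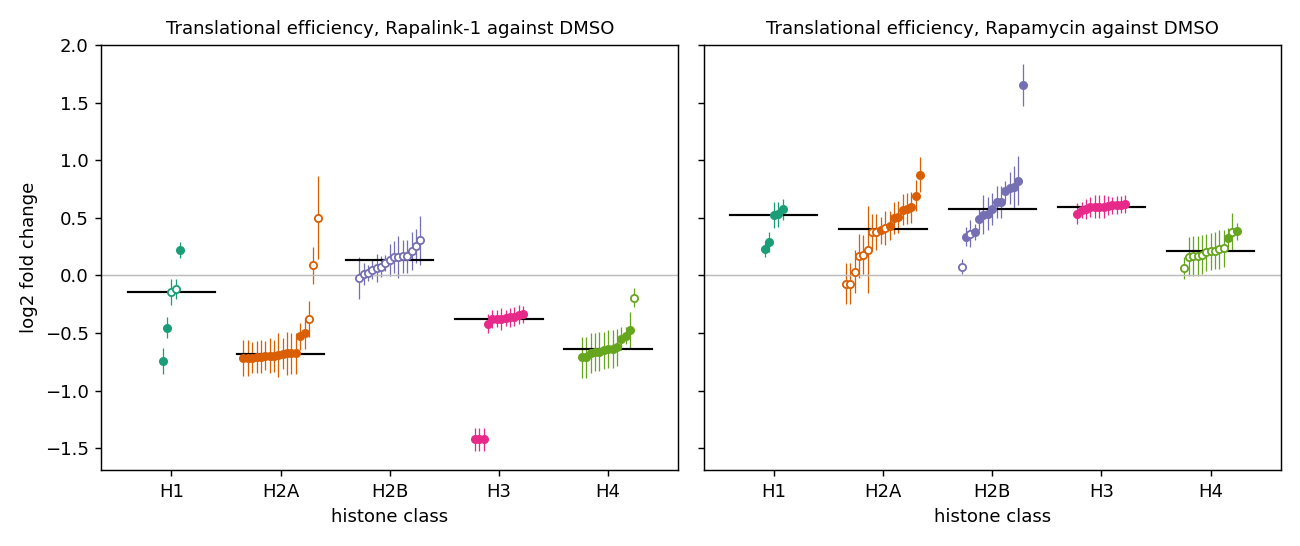
Log2 fold change of translational efficiency for each histone gene by class, with Rapalink-1 (left) and rapamycin (right) against DMSO; bars are standard errors, filled points were called, and black lines are class medians. With Rapalink-1 the medians run from -0.69 in H2A to 0.14 in H2B, and with rapamycin all are above 0.

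With rapamycin, efficiency was higher than with DMSO for 41 of 63 genes and lower for 0, where 6.52% of all genes were called higher and 9.85% lower. Here too the label of the footprint libraries differs along with the drug. The median was 0.50, against 0.00 over all genes, and by library totals 43 were higher and 0 lower. H3 had 12 of 12 called (median 0.60), H1 5 of 5 (0.52), H2B 13 of 15 (0.58), H2A 9 of 18 (0.40) and H4 2 of 13 (0.21). Without DMSO replicate 1, 29 genes were called, 3 of them H2A. The largest rise was that of Hist1h2ba, 1.65 ± 0.183 (adjusted p = 4e-05), whose footprint to RNA ratio was 0.871 ± 0.13 with rapamycin and 0.277 ± 0.00489 with DMSO (SD, n = 3 each). Its DMSO ratio was unusually low, at percentile 2.84 of the genes with at least 1 CPM in both assays. Whether reads of other H2B genes enter the counts of Hist1h2ba was not tested. Hist1h2ac followed at 0.87 ± 0.153 (adjusted p = 0.0013) and Hist2h2be at 0.82 ± 0.212 (adjusted p = 0.018). Hist1h4a was at 0.22 ± 0.161 and was not called (adjusted p = 0.43). Between the drugs, efficiency was lower with Rapalink-1 than with rapamycin for 56 of 63 genes and higher for 0, where 23.9% and 26.1% of all genes were called; by library totals 44 were lower and 2 higher. The difference was -2.02 ± 0.102 for Hist2h3b (adjusted p = 9.6e-13).

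H2A and H2B proteins are needed in equal amounts, and 10 head-to-head pairs of their genes, with starts 164 to 281 bp apart, allow both to be read at 1 locus. Pairs were sought among the 58 genes with a promoter window, so Hist1h2bc and Hist2h2be could not enter. In RNA, the H2A gene had the larger log2 change with Rapalink-1 in 10 of 10 pairs, with a median of 0.59 against 0.24 for the H2B genes. In efficiency the H2A gene was the lower one in 9 of 10 pairs, with 9 H2A and 0 H2B genes called lower and medians of -0.70 and 0.11. In the pair Hist1h2ah and Hist1h2bk, whose shared window is printed above, RNA changed by 0.60 and 0.22, footprints by -0.14 and 0.34, and efficiency by -0.70 and 0.17. The exception was Hist1h2aa and Hist1h2ba, known as testis genes, where Hist1h2aa was at 2.11 to 6.72 footprint CPM in DMSO libraries. Many of these H2A genes have near-equal counts, so the 10 pairs are fewer than 10 measurements. The difference between the pair members itself was not tested.

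**Figure D5:**
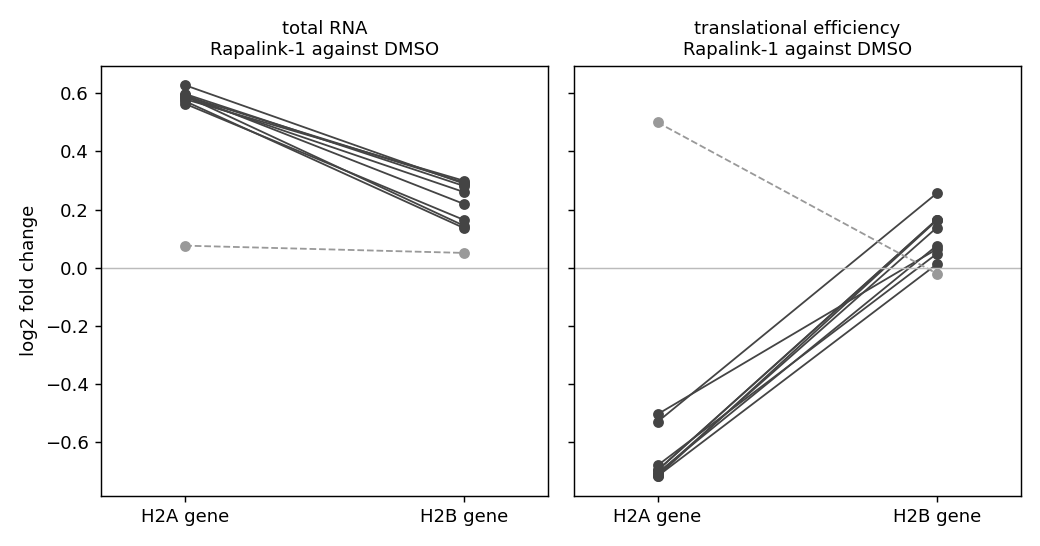
Log2 fold changes with Rapalink-1 against DMSO for the H2A and H2B gene of 10 head-to-head pairs, in total RNA (left) and translational efficiency (right); each line joins a pair, and the dashed line is Hist1h2aa and Hist1h2ba. The H2A genes lie above their partners in RNA and, in all pairs but the dashed one, below them in efficiency.

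Genes that make, process and carry histone mRNA or histones did not move as a block. Slbp RNA was higher with Rapalink-1 (0.22 ± 0.055, adjusted p = 0.0012), a call lost by library totals (0.09, adjusted p = 0.23). Its efficiency was at 0.04 ± 0.079 and not called (adjusted p = 0.73), but higher by library totals (0.41, adjusted p = 2e-05). With rapamycin Slbp was at -0.09 ± 0.056 in RNA (adjusted p = 0.27). Npat RNA was at -0.12 ± 0.075 with Rapalink-1, not called (adjusted p = 0.22), and by library totals lower (-0.26, adjusted p = 0.0055). It was higher with rapamycin (0.25 ± 0.074, adjusted p = 0.012; 0.18 and not called without rapamycin replicate 3, adjusted p = 0.12), while its efficiency was higher with Rapalink-1 (0.46 ± 0.112, adjusted p = 0.00071). Of the 25 listed genes of histone mRNA processing and transcription, 23 were tested: in RNA 8 were higher and 4 lower with Rapalink-1, where 19.4% and 18.8% of all genes were called, and 5 higher and 3 lower with rapamycin, against 13.6% and 10.5%. The shares called lower were near those over all genes. Cpsf1, of the cleavage and polyadenylation complex, rose by 0.39 ± 0.052 (adjusted p = 7.9e-08) and the cap-binding gene Ncbp2 fell by 0.52 ± 0.076 (adjusted p = 4.7e-07) with Rapalink-1. With rapamycin, RNA of Zcchc11, a uridyltransferase, rose by 0.74 ± 0.075 (adjusted p = 2.4e-10) and that of Zfp473, a protein of the histone processing complex, by 1.05 ± 0.162 (adjusted p = 2.6e-06). Zfp473 RNA was low, at 14.3, 11.4 and 15.7 CPM with rapamycin and 6.28, 7.23 and 6.13 CPM with DMSO. It was similar with Rapalink-1, at 14.2, 11 and 15.5 CPM. In efficiency, 9 were higher and 5 lower with Rapalink-1, against 22.3% and 19.9% of all genes, with Eri1, an exonuclease that trims the histone stem-loop, at 0.62 ± 0.089 (adjusted p = 7.8e-08) and Cpsf1 at -0.61 ± 0.079 (adjusted p = 5.8e-09). With rapamycin 0 were higher and 3 lower, against 6.52% and 9.85%, among them Zcchc11 at -0.59 ± 0.104 (adjusted p = 2.8e-05) and the exonuclease gene Xrn1 at -0.60 ± 0.122 (adjusted p = 0.00025).

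S phase genes were read beside the histones, since histone mRNA follows DNA synthesis. With Rapalink-1, RNA was higher for 16 of 29 and lower for 6, against 19.4% and 18.8% of all genes, so the share called lower was near that over all genes. The median was 0.15, against 0.59 for the histone genes. Cdt1, which licenses replication origins, rose by 0.90 ± 0.058 (adjusted p = 2.3e-16), and Mcm7, of the replicative helicase, by 0.59 ± 0.046 (adjusted p = 3.2e-14). Changes in the list ran from -0.83 to 0.90. The cyclin gene Ccne1, named here after its values were seen, went down. It had 20.7, 23.1 and 21.5 CPM with Rapalink-1 and 38.4, 37.3 and 40.5 CPM with DMSO. With rapamycin 5 were higher and 4 lower, near the 13.6% and 10.5% of all genes, with Ccne2, a cyclin of the G1 to S transition, at -0.41 ± 0.067 (adjusted p = 6.6e-06) and the DNA ligase Lig1 at 0.33 ± 0.065 (adjusted p = 0.00014). The part of S phase cells in the histone changes was not tested. In efficiency with Rapalink-1, 9 were higher and 10 lower, against 22.3% and 19.9% of all genes, with Rrm2 at -0.72 ± 0.073 (adjusted p = 6.8e-12) and Rpa1 at -0.63 ± 0.071 (adjusted p = 1.8e-10). With rapamycin 2 were higher and 2 lower, near the 6.52% and 9.85% of all genes; the lower ones were Lig1 at -0.32 ± 0.086 (adjusted p = 0.0056) and Dnmt1 at -0.26 ± 0.074 (adjusted p = 0.0092), whose call was lost without rapamycin replicate 1 (-0.24, adjusted p = 0.059) or replicate 3 (-0.23, adjusted p = 0.063).

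Replacement histones, which are not tied to S phase and come mostly from polyadenylated mRNAs, had calls in both directions. In RNA with Rapalink-1, 4 of 11 were higher and 2 lower, where 19.4% and 18.8% of all genes were called, so the share called lower was near that over all genes. The linker histone H1f0 rose by 0.67 ± 0.076 (adjusted p = 3e-06), and H2afz, the H2A.Z gene, fell by 0.33 ± 0.040 (adjusted p = 4.9e-09). In efficiency with Rapalink-1, 4 were higher and 3 lower, against 22.3% and 19.9% of all genes, with H1f0 at 0.85 ± 0.141 (adjusted p = 0.00018) and H3f3b, an H3.3 gene, at 0.33 ± 0.067 (adjusted p = 7.2e-05). With rapamycin, 1 was higher and 2 lower in RNA, against 13.6% and 10.5%, with H2afv at 0.44 ± 0.064 (adjusted p = 8.6e-07) and H2afz at -0.21 ± 0.040 (adjusted p = 0.00011). In efficiency with rapamycin 3 were higher and 0 lower, against 6.52% and 9.85%, among them H2afx at 0.70 ± 0.157 (adjusted p = 0.0075) and H2afz at 0.37 ± 0.064 (adjusted p = 2.2e-05).

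Of 18 histone chaperones and assembly factors, 7 were higher and 3 lower in RNA with Rapalink-1, where 19.4% and 18.8% of all genes were called, with Ipo4, an importin for histones, at 0.42 ± 0.054 (adjusted p = 2.4e-08) and Mcm2 at 0.39 ± 0.049 (adjusted p = 1.8e-08). In efficiency with Rapalink-1, 5 were higher, near the 22.3% of all genes, and 8 lower, against 19.9%. Nap1l1, a chaperone of H2A and H2B, was at -1.15 ± 0.073 (adjusted p = 1.1e-19) and Ipo4 at -1.0 ± 0.080 (adjusted p = 9.9e-16). With rapamycin, RNA was higher for 4 and lower for 2, against 13.6% and 10.5% of all genes, with Nap1l1 at 0.33 ± 0.046 (adjusted p = 3.6e-07) and Atrx, a chromatin remodeller that works with the H3.3 chaperone Daxx, at 0.33 ± 0.053 (adjusted p = 6.2e-06). Their efficiencies with rapamycin were -0.46 ± 0.073 (adjusted p = 4e-06) and -0.58 ± 0.084 (adjusted p = 5.6e-07), in a list with 1 higher and 5 lower, against 6.52% and 9.85% of all genes.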

How the data were processed

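Reads were aligned to mouse build GRCm38, per the submitters' processing notes; the aligner, the annotation release and the treatment of reads that match several genes were not given in the sources used here; neither is any poly(A) selection. The count values are whole-number read counts per transcript as deposited by the authors, without normalization. The gene symbols are names as deposited by the authors in a comparison table of 12372 rows, of which 102 have no symbol; other columns of the authors' comparison tables were not used.

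Of 27382 rows, 6378 were 0 throughout; rows that shared their counts or their Ensembl gene made up 15307 genes after merging. Genes passing filterByExpr (minimum count 10, minimum total 15), 11271 in RNA and 11281 in footprints, were scaled by TMM and fitted with edgeR's quasi-likelihood test, each assay apart. Efficiency was tested as the assay by treatment interaction over 18 libraries, for the 10988 genes passing in both. The biological coefficient of variation was 5.72, 6.38 and 6.05% in the RNA, footprint and joint fits. Calls used an adjusted p below 0.05 (Benjamini-Hochberg). Class sums have no test. The scripts were tested on simulated data. A first requirement on overall recovery was missed for efficiency, because small changes were often not called, and was replaced after that result by one for larger changes, which was met; small changes of efficiency can therefore be missed. Members and lists were chosen with earlier results of these data known. Genes named are the 2 most abundant of each class, up to 3 largest rises and falls per drug, assay and efficiency, and 2 per context list with the smallest p in RNA and efficiency against DMSO, plus Slbp and Npat. Alternatives were other scalings, no filter, DESeq2, uncollapsed rows, only the treatments compared, a replicate block and single replicates left out. Programs were edgeR 4.0.16 and DESeq2 1.42.0 with limma 3.58.1 in R 4.3.3, and pandas 2.3.3 and matplotlib 3.10.9 in Python 3.11.15.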

Additional observations from a re-analysis of the deposited data

How the results depend on the processing

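By library totals without TMM, counts for footprints were 36 higher and 3 lower with Rapalink-1 against DMSO, and 22 higher and 9 lower with Rapalink-1 against rapamycin. For efficiency they were 20 higher and 12 lower with Rapalink-1 against DMSO, and 2 higher with Rapalink-1 against rapamycin. The log2 ratio of summed histone RNA, Rapalink-1 over DMSO, was 0.50 by library totals and 0.64 by TMM. Among named values called under TMM or by library totals, signs turned by library totals for footprints with Rapalink-1 against rapamycin of Hist1h3f (0.17), Hist1h3b (0.13) and Hist1h3h (0.17), for efficiency against DMSO of Hist1h1c (0.25), Hist1h1d (0.23), Hist4h4 (0.18) and Hist1h3h (0.01), and for efficiency against rapamycin of Hist1h1b (0.32).

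Footprints lower with Rapalink-1 than with DMSO were 13 with no count filter, 10 with only the treatments compared and 3 with members within 1% counted once (chosen after seeing the data), against 6. Footprints lower with Rapalink-1 than with rapamycin were 28 by the DESeq2 Wald test, against 16. Footprints higher with rapamycin than with DMSO were 41 with only the treatments compared, against 24. With the replicate block these 3 counts were 15, 34 and 44. Samples of the same number correlated between -0.16 and 0.04 in RNA and between -0.14 and 0.17 in footprints. Those of different numbers correlated between -0.08 and 0.14 in RNA and between -0.29 and 0.23 in footprints. They were taken over genes of all kinds, so they cannot decide whether the number pairs the treatments in histone genes. In summed footprints of H4 and H2A, replicate 2 was the highest in each treatment, but not in those of H1, H2B or H3. For H4 it had 34873 CPM with DMSO, 35714 with Rapalink-1 and 44679 with rapamycin. Between the footprint and RNA library of a number, the correlation was 0.126, 0.135 and 0.163 in DMSO and -0.064 to 0.027 in both drugs. With each treatment and number as a replicate block, 81 of 83 named efficiency values kept their side of the threshold and 2 gained a call, Hist4h4 with Rapalink-1 against DMSO (-0.20, adjusted p = 0.034) and Hist2h2be with Rapalink-1 against rapamycin (-0.53, adjusted p = 0.00095). The cause of these shifts was not tested.

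With 1 replicate left out, the counts for Rapalink-1 against DMSO ranged over 55 to 59 higher and 0 lower in RNA, 18 to 25 higher and 3 to 10 lower in footprints, and 0 to 6 higher and 38 to 43 lower in efficiency. For rapamycin against DMSO they were 0 to 13 higher and 26 to 39 lower in RNA, 19 to 38 higher and 0 lower in footprints, and 29 to 41 higher and 0 lower in efficiency. For Rapalink-1 against rapamycin they were 58 to 62 higher and 0 lower in RNA, 7 to 9 higher and 13 to 32 lower in footprints, and 0 higher and 50 to 58 lower in efficiency. Libraries that moved a count by over 1.5 times were, for RNA higher with rapamycin than with DMSO, DMSO replicate 2 (13 without it), for footprints higher with rapamycin than with DMSO, Rapalink-1 replicate 3 (38), and, for footprints lower with Rapalink-1 than with DMSO, DMSO replicate 3, Rapalink-1 replicates 1 and 3 (3 each without it) and rapamycin replicate 2 (10). For footprints lower with Rapalink-1 than with rapamycin it was Rapalink-1 replicate 2 (32), and for higher efficiency with Rapalink-1 than with DMSO, DMSO replicates 1 (0) and 3 (6). Of 3976 alternative values of 229 named results, 75 lost a call, 105 gained one, 8 changed sign with a call under either setting, as above, and 3788 kept their side of the threshold. Of these 3788, 56 changed sign but were called in neither, 11 of them by library totals.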
